A study of Mus musculus with 4 samples.

Results

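Sptb, Ank1 and Tal1 are genes of the red cell lineage, and their transcripts outside the reference annotation were followed here in granulocyte-monocyte progenitors, which are marrow cells on the way to becoming neutrophils or monocytes. The members were all transcripts listed under the mouse NCBI gene numbers of these 3 genes, out of 5059 genes with such a number in any library. There were 4 such transcripts, 1 of Sptb, 1 of Ank1 and 2 of Tal1, and all 4 were listed in all 4 libraries. The groups were cells from MST1-deficient mice and cells from wild-type mice, with 2 libraries each and 10 pooled mice per library, per the labels. The sorted cells were kept in medium with serum and received no drug. No label gives a strain, an age, a sex, an allele or a batch. MST1 was taken to be the Hippo pathway kinase that Stk4 encodes in the mouse, although the labels do not name the gene, and no unannotated transcript of Stk4 was listed, so the genotype could not be checked.

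The red cell membrane is held up by a skeleton of spectrin, whose beta chain in red cells is Sptb, and ankyrin (Ank1) ties that skeleton to the anion exchanger in the membrane. Loss of either protein makes red cells fragile: the mouse jaundiced mutation lies in Sptb and the normoblastosis mutation in Ank1. Tal1, also called Scl, is a basic helix-loop-helix transcription factor that is needed to form blood at all and later for red cells and megakaryocytes. It pairs with E proteins (Tcf3, Tcf12) and works in a complex with Gata1 or Gata2, Lmo2 and Ldb1. E proteins and Tal1 bind E-box sequences, and Gata factors bind GATA sequences.

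Annotated transcripts were not analysed here, so each gene level below is the sum of unannotated transcripts only. Levels are in FPKM, the authors' estimated counts scaled to the length of the transcript and the size of the library. The libraries listed between 6517 and 6774 transcripts with summed estimated counts of 928977 to 1079382. The library totals implied by count, FPKM and length were 6913402 and 8518606 in MST1-deficient replicates 1 and 2 and 7982130 and 7406961 in wild-type replicates 1 and 2.

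The unannotated transcripts were long. Sptb (gene 20741) lies on the minus strand of chromosome 12 from 76580488 to 76710547 (GRCm38), and its unannotated transcript, novel_T002062, had 8609 bases. Its length lay between those of 2 annotated protein-coding forms in GENCODE M21, of 8084 bases and of 10394 bases in 36 exons. Ank1 (gene 11733) lies on the plus strand of chromosome 8 from 22974836 to 23150501, and novel_T009309 had 7914 bases. It was longer than 13 of the 17 annotated Ank1 transcripts and 233 bases shorter than the nearest, a protein-coding form of 8147 bases. Tal1 (gene 21349) lies on the plus strand of chromosome 4 from 115056426 to 115071755. Its unannotated transcripts, novel_T006693 of 4622 bases and novel_T006692 of 6611 bases, both exceeded all 4 annotated forms, the longest of which had 4213 bases in 5 exons. The shorter form exceeded that one by 409 bases and the longer form by 2398 bases. No source used here gives the exons of the unannotated transcripts or the annotation the authors used, so lengths alone were compared.

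**Figure D1:**
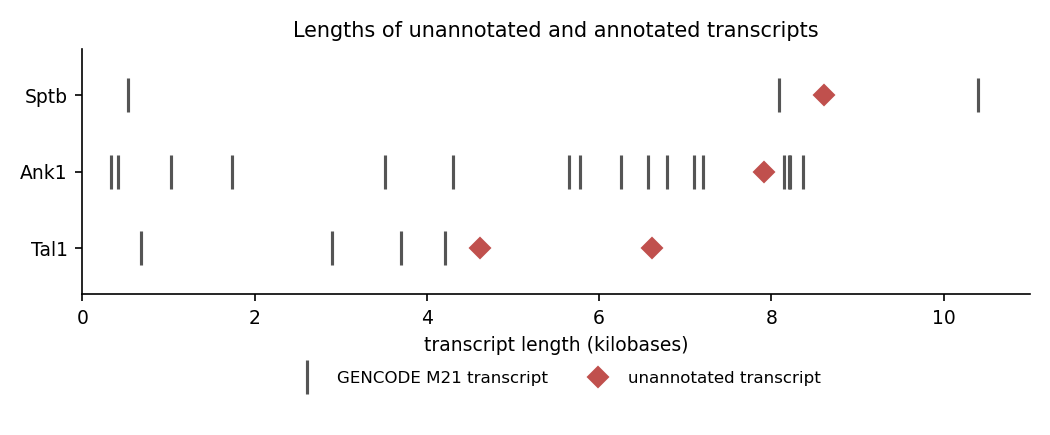
Lengths in kilobases of the annotated transcripts in GENCODE M21 (vertical ticks) and of the 4 unannotated transcripts (diamonds) for Sptb, Ank1 and Tal1. The Sptb and Ank1 transcripts lie within the annotated range, and both Tal1 transcripts lie beyond the longest annotated form of 4213 bases.

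The sequence before the first annotated start is shown for Sptb, the member described first, and for Tal1, as a search for E-boxes and GATA sequences. Of the 3 genes, 2 were matched to a window, Tal1 to 2 windows, of which that at the outermost start was searched and is shown. Each run gives the 250 bases before the start of the gene in RefSeq (GRCm38.p6), at chr12:76710548-76710797 on the minus strand for Sptb and at chr4:115056176-115056425 on the plus strand for Tal1. Capitals mark matches on either strand to an E-box (CANNTG) or to a GATA sequence, searched as AGATAA, as the variant TGATAA, as the variant AGATAG and as the variant TGATAG.
Sptb: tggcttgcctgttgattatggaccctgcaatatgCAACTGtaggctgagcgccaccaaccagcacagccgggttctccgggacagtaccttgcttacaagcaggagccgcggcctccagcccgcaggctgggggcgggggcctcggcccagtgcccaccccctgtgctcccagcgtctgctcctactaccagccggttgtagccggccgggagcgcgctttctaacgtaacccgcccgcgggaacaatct
Tal1: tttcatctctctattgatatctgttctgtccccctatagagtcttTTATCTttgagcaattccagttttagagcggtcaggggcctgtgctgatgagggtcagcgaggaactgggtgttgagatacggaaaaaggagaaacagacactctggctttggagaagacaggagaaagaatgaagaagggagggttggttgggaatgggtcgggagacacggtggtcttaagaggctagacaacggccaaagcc

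The Sptb window held 1 E-box, CAACTG, from 216 to 211 bases before the start, and no GATA match. The Tal1 window held 1 GATA match, TTATCT, which is AGATAA read on the other strand, from 205 to 200 bases before the start, and no E-box. With only 1 match in each window, the 2 motifs could not overlap. Among 32536 distinct windows of this length before annotated mouse starts, 66.2% held an E-box and 26.5% a GATA match. The Sptb window was 65.2% G or C and the Tal1 window 48.8%, against a median of 52.4%.

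Sptb, the beta chain of red cell spectrin, had the lowest p-value of the 3 genes. Its transcript had 7.89 and 2.91 FPKM in MST1-deficient replicates 1 and 2, against 13.82 and 15.76 FPKM in wild-type replicates 1 and 2. Both MST1-deficient libraries lay below both wild-type libraries, and MST1-deficient replicate 2 was the lowest of the 4. The means were 5.40 ± 3.52 FPKM in MST1-deficient libraries and 14.8 ± 1.37 FPKM in wild-type libraries (SD, n = 2 each). The estimated counts behind these levels were 461.85 and 210.43 in MST1-deficient libraries and 934.31 and 988.94 in wild-type libraries.

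The log2 fold change of Sptb, MST1-deficient over wild type, was -1.47 with an SE of 0.43, that is 2.76-fold lower. It had an unadjusted p of 0.0226 and an adjusted p of 0.737 in edgeR's quasi-likelihood test over the summed unannotated transcripts of 3221 genes, so the difference did not pass the threshold of 0.05. With edgeR 0 of those genes passed (0%), 181 (5.62%) had an unadjusted p under 0.05, 84 of them lower in MST1-deficient cells (2.61%). DESeq2 called 49 of the 3158 genes to which it gave an adjusted p (1.55%) and limma on FPKM called 5, and Sptb was in neither count. A pattern like that of Sptb, with no overlap and the MST1-deficient libraries lower, was found in 18.8% of the tested genes. DESeq2 gave Sptb an adjusted p of 0.0739, and the range over all alternatives was 0.0739 to 0.998. The p-values measure the spread between 2 pools of mice per group, and an exact permutation test of 2 against 2 cannot go below 0.33.

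The size of the Sptb difference depended on the MST1-deficient libraries, which differed from each other 2.71-fold, while the wild-type libraries differed 1.14-fold. Between MST1-deficient libraries the log2 spread of Sptb exceeded that of 87.1% of the 3221 tested genes, and between wild-type libraries that of 28.6%. Without MST1-deficient replicate 1 the log2 fold change was -2.14, and without MST1-deficient replicate 2 it was -1.01. The estimate was below 0 with each of the 4 libraries left out in turn. Ranked among genes by level, Sptb stood above 77.7% and 56.9% of listed genes in MST1-deficient replicates 1 and 2, and above 87.8% and 90.2% in wild-type replicates 1 and 2.

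Ank1, the ankyrin that anchors spectrin, had groups that overlapped. Its transcript had 5.69 and 1.52 FPKM in MST1-deficient replicates 1 and 2, against 5.33 and 10.49 FPKM in wild-type replicates 1 and 2. MST1-deficient replicate 1 and wild-type replicate 1 were nearly level, MST1-deficient replicate 2 was the lowest and wild-type replicate 2 the highest. The means were 3.61 ± 2.95 FPKM in MST1-deficient libraries and 7.91 ± 3.65 FPKM in wild-type libraries (SD, n = 2 each).

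The log2 fold change of Ank1 was -1.18 with an SE of 0.67 (unadjusted p = 0.145, adjusted p = 0.943, edgeR). The difference did not pass the threshold. The log2 fold change was -2.19 or -0.60 without MST1-deficient replicate 1 or 2, and -1.66 or -0.51 without wild-type replicate 1 or 2. The libraries of a group differed 3.74-fold in MST1-deficient and 1.97-fold in wild-type cells, a log2 spread larger than that of 91.5% and 84.1% of tested genes.

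The ratio of spectrin to ankyrin varied between libraries. The level of Sptb over that of Ank1, both per length, was 1.39 and 1.91 in MST1-deficient replicates 1 and 2, against 2.59 and 1.5 in wild-type replicates 1 and 2. The ratio was above 1 in all 4 libraries, and its range in the groups overlapped. The level of Sptb over the summed level of Tal1 varied over a wider range. It was 1.62 and 0.853 in MST1-deficient libraries and 3.32 and 3.53 in wild-type libraries, without overlap. The Tal1 sum ran only from 3.41 to 4.88 FPKM, so this ratio largely follows Sptb. How often such ratios of other genes separate the groups was not tested. In MST1-deficient replicate 2 the order of levels was Tal1, Sptb and Ank1 from high to low, and in the other 3 libraries Sptb was the highest of the 3.

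**Figure D2:**
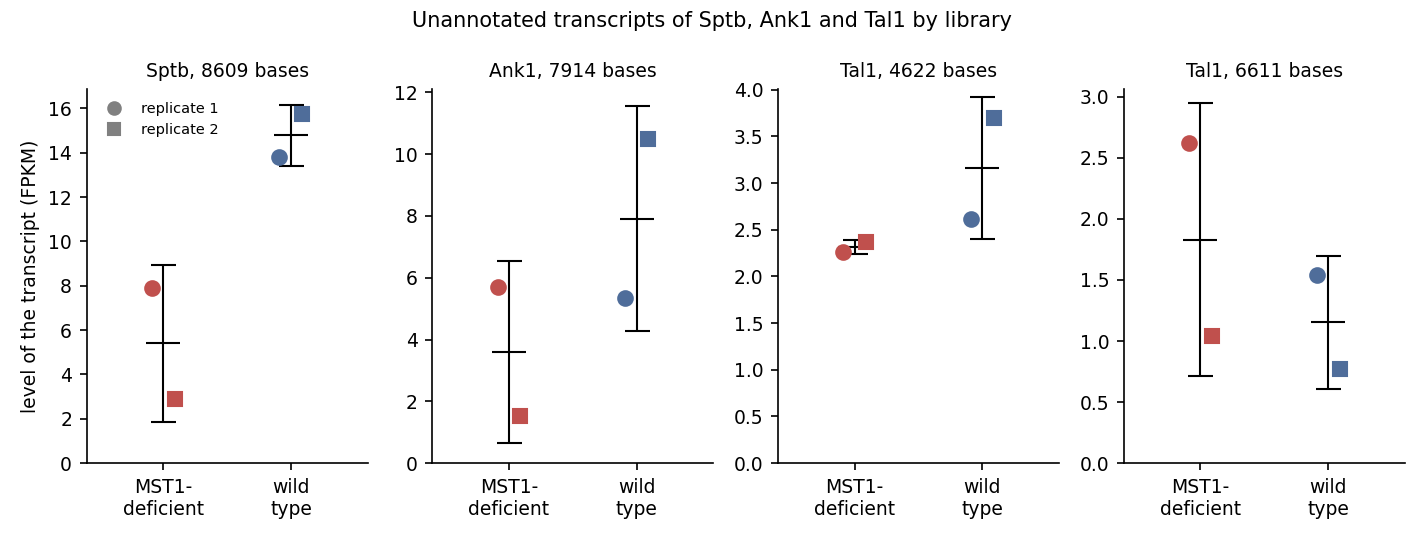
Level in FPKM (each vertical axis starts at 0) of each unannotated transcript of Sptb, Ank1 and Tal1 in MST1-deficient and wild-type libraries, with circles for replicate 1, squares for replicate 2 and black bars for mean and SD (n = 2). The groups are apart for Sptb (7.89 and 2.91 against 13.82 and 15.76 FPKM) and for the Tal1 form of 4622 bases, and overlap for Ank1 and for the Tal1 form of 6611 bases.

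Tal1, the transcription factor, had mean summed levels that differed by less than the spread between pools. Its transcripts summed to 4.88 and 3.41 FPKM in MST1-deficient replicates 1 and 2, against 4.16 and 4.47 FPKM in wild-type replicates 1 and 2. The MST1-deficient libraries were the highest and the lowest of the 4, with the wild-type libraries between them. The means were 4.15 ± 1.04 FPKM in MST1-deficient libraries and 4.32 ± 0.219 FPKM in wild-type libraries (SD, n = 2 each). On counts the log2 fold change was 0.072 with an SE of 0.29 (adjusted p = 0.994, edgeR), and with limma on log2(FPKM + 0.5), which differs in input, scaling and model, it was -0.069.

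The Tal1 forms differed in how they were spread over the libraries. The form of 4622 bases, novel_T006693, had 2.26 and 2.37 FPKM in MST1-deficient replicates 1 and 2, against 2.62 and 3.70 FPKM in wild-type replicates 1 and 2. Both MST1-deficient libraries lay below both wild-type libraries, as for 19.9% of the 4661 tested transcripts. Its log2 fold change was -0.40 with an SE of 0.46 (adjusted p = 0.999, edgeR over transcripts). Leaving out MST1-deficient replicate 1 or 2 gave -0.22 or -0.58, and leaving out wild-type replicate 1 or 2 gave -0.67 or -0.029. The form of 6611 bases, novel_T006692, had 2.62 and 1.04 FPKM in MST1-deficient replicates 1 and 2, against 1.54 and 0.77 FPKM in wild-type replicates 1 and 2. The groups overlapped, and in each group the library numbered 1 was above the library numbered 2. Its log2 fold change was 0.68 with an SE of 0.63 (adjusted p = 0.999, edgeR over transcripts), and 0 of the 4661 transcripts passed with edgeR (0%), with 245 at an unadjusted p under 0.05. Leaving out MST1-deficient replicate 1 or 2 gave the longer form 0.094 or 1.12, and leaving out wild-type replicate 1 or 2 gave it 1.18 or 0.34. DESeq2 called 100 transcripts and limma on FPKM called 5, none of them among the 4 described here.

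As a share of the unannotated Tal1 FPKM, the form of 6611 bases made up 53.7% and 30.5% in MST1-deficient replicates 1 and 2, against 37.0% and 17.2% in wild-type replicates 1 and 2. It was the larger form in MST1-deficient replicate 1 and the smaller one in the other 3 libraries. The mean share was 42.1 ± 16.4% in MST1-deficient libraries and 27.1 ± 14.0% in wild-type libraries (SD, n = 2 each). The difference of 15.0 percentage points was smaller than the SD of the MST1-deficient libraries and larger than that of the wild-type libraries.

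Shares of estimated counts rest on 148 to 187 counts per library and have 95% Wilson intervals that cover counting error only. By counts the form of 6611 bases had 62.6% (55.4 to 69.2) in MST1-deficient replicate 1 and 38.8% (31.7 to 47.2) in MST1-deficient replicate 2. It had 45.8% (38.4 to 53.1) in wild-type replicate 1 and 23.1% (17.3 to 30.2) in wild-type replicate 2. Within each group the intervals of the replicates did not overlap, so the pools of a group differed by more than this counting error. The interval of MST1-deficient replicate 2 overlapped that of wild-type replicate 1. No source used here says how reads shared by the forms were divided between them, and the intervals do not cover that step.

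The balance of the Tal1 forms was tested with diffSplice of limma on log2(FPKM + 0.5). The change of the longer form relative to the other was 0.81 on the log2 scale with an SE of 0.64, with an unadjusted p of 0.250 and an adjusted p of 0.804. It was 0.27 or 1.35 when MST1-deficient replicate 1 or 2 was left out, and 1.36 or 0.25 when wild-type replicate 1 or 2 was. Of 909 genes with at least 2 tested transcripts 1.87% passed, and Tal1 did not. Sptb and Ank1 had a single unannotated transcript each, which was therefore the whole of the gene's unannotated level in every library.

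**Figure D3:**
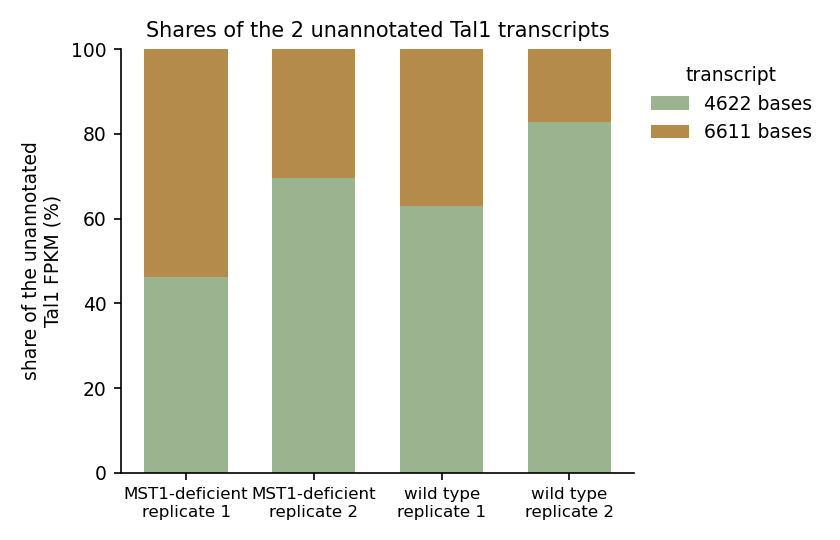
Share in percent of the unannotated Tal1 FPKM held by the transcripts of 4622 and 6611 bases in each library. The longer form runs from 17.2% in wild-type replicate 2 to 53.7% in MST1-deficient replicate 1, and each group has its larger share in replicate 1.

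Other genes of the red cell membrane were described from a list of 23 that includes Sptb and Ank1. Of these, 12 had an unannotated transcript and 9 were tested. None passed the threshold over all genes with edgeR (0%), DESeq2 or limma, and 2 of the 9, Sptb and Epb41, had an unadjusted p under 0.05 with lower values in MST1-deficient cells, against 2.61% of all tested genes. The median log2 fold change of the 9, Sptb and Ank1 included, was -0.61, against 0.012 over all 3221 tested genes. Of the 9, 5 were below 0, against 48.9% of all tested genes. In 3 of the 9, Sptb, Epb41 and Kel, both MST1-deficient libraries lay below both wild-type libraries, against 18.8% of all tested genes, and in 1, Add1, both lay above, against 14.1%. Epb41 met the filter of FPKM of at least 1 only in wild-type libraries, and Add1 only in MST1-deficient libraries. Their lack of overlap was therefore fixed by the filter and says nothing about the list. The unadjusted p of Epb41 rests on the same low values. With 1 library left out, the list's median was -1.81 or -0.44 for MST1-deficient replicate 1 or 2, and -0.95 or -0.21 for wild-type replicate 1 or 2.

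Epb41 encodes protein 4.1, which joins spectrin to actin, and had the lowest log2 fold change of the list, -2.65 with an SE of 0.70 (adjusted p = 0.663, edgeR). Its 5 unannotated transcripts summed to 0.84 and 0.17 FPKM in MST1-deficient libraries, against 3.90 and 2.29 FPKM in wild-type libraries. Kel, a blood group protein, had 6.30 and 1.67 FPKM in MST1-deficient libraries, against 7.66 and 7.88 FPKM in wild-type libraries. Add1, an adducin, had 1.46 and 1.05 FPKM in MST1-deficient libraries, against 0.61 and 0 FPKM in wild-type libraries. Epb41, Kel and Add1 were picked after their values were seen.

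Among the most abundant members of the list, Cd47, a surface protein that protects cells from being engulfed, had 57.78 and 53.76 FPKM in MST1-deficient libraries and 55.52 and 54.47 FPKM in wild-type libraries. Piezo1, a mechanically gated cation channel, had 16.56 and 10.50 FPKM in MST1-deficient libraries and 10.62 and 14.14 FPKM in wild-type libraries. Add3, an adducin that caps actin at the spectrin junction, had 5.37 and 15.57 FPKM in MST1-deficient libraries and 9.08 and 9.82 FPKM in wild-type libraries. Ermap, an erythroblast membrane protein, had 9.96 and 2.24 FPKM in MST1-deficient libraries and 7.28 and 10.76 FPKM in wild-type libraries. All 4 overlapped between the groups, while Sptb and Kel, also among the most abundant of the list, did not. The MST1-deficient libraries lay lower without overlap in 18.8% of all tested genes, and higher without overlap in 14.1%. Among spectrins and ankyrins of other tissues, 2 of 7 were tested, and the median of their log2 fold changes was 0.18. That median was -0.24 or 0.48 when MST1-deficient replicate 1 or 2 was left out, and 0.41 or 0.015 when wild-type replicate 1 or 2 was. Sptan1, the alpha spectrin of most cells, had 27.92 and 18.75 FPKM in MST1-deficient libraries and 22.95 and 21.92 FPKM in wild-type libraries. Sptbn1, a beta spectrin of most cells, had 24.42 and 8.79 FPKM in MST1-deficient libraries and 18.84 and 9.01 FPKM in wild-type libraries.

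In the Tal1 complex, 9 of 16 listed partners and erythroid transcription factors, Tal1 included, were tested and none passed with edgeR (0%), DESeq2 or limma. None had an unadjusted p under 0.05 with edgeR, and their median log2 fold change was 0.072. Of the 9, 4 were below and 5 above 0, and 48.9% of all tested genes were below 0. The list's median was -0.069 with limma on log2(FPKM + 0.5), and -0.068 to 0.22 over the fits that leave out 1 library. In 2 of the 9, Gata2 and Tcf3, both MST1-deficient libraries were below both wild-type libraries, against 18.8% of all tested genes. Gata2, the most abundant of them, had 64.40 and 63.04 FPKM in MST1-deficient libraries, against 74.22 and 78.88 FPKM in wild-type libraries, without overlap (log2 fold change -0.19, adjusted p = 0.994, edgeR). Ldb1, the bridging factor, had 63.13 and 46.39 FPKM in MST1-deficient libraries and 63.35 and 55.57 FPKM in wild-type libraries. Lmo2, the scaffold of the complex, had 7.57 and 4.82 FPKM in MST1-deficient libraries and 5.71 and 3.78 FPKM in wild-type libraries, with overlap. Tcf3 had 6.74 and 4.74 FPKM in MST1-deficient libraries and 6.79 and 7.21 FPKM in wild-type libraries, and Tcf12 had 11.85 and 6.33 FPKM in MST1-deficient libraries and 9.41 and 9.21 FPKM in wild-type libraries. Cbfa2t3, a corepressor that joins the complex, had 6.61 and 3.47 FPKM in MST1-deficient libraries and 3.87 and 3.05 FPKM in wild-type libraries. No unannotated transcript of Gata1, Klf1, Zfpm1 or Nfe2, the other factors best known for red cells, was listed in any library.

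The globin, heme and iron genes gave 5 tested of 23, none of which passed with edgeR (0%). Alad alone of the 5 passed with DESeq2, which called 49 of the 3158 genes to which it gave an adjusted p (1.55%). Alad alone also had an unadjusted p under 0.05 with edgeR, against 2.61% of all tested genes in that direction. The 5 had a median log2 fold change of -0.68, which was -0.40 with the replicate block, -1.26 or -0.26 when MST1-deficient replicate 1 or 2 was left out, and -1.25 or -0.28 when wild-type replicate 1 or 2 was. Alad, the second enzyme of heme synthesis, had 14.46 and 10.07 FPKM in MST1-deficient libraries, against 26.23 and 34.97 FPKM in wild-type libraries (log2 fold change -1.29, SE 0.27). Its adjusted p was 0.480 with edgeR and 0.00627 with DESeq2. Slc25a38, the mitochondrial glycine carrier of heme synthesis, had 6.13 and 2.02 FPKM in MST1-deficient libraries, against 10.97 and 9.0 FPKM in wild-type libraries (log2 fold change -1.30, SE 0.54, adjusted p = 0.907, edgeR). Ppox, a late enzyme of heme synthesis, had 9.12 and 5.91 FPKM in MST1-deficient libraries, against 9.90 and 10.79 FPKM in wild-type libraries. In these 3 of the 5 tested genes, picked after their values were seen, the MST1-deficient libraries were lower without overlap, against 18.8% of all tested genes. The other two overlapped. Slc25a37, a mitochondrial iron carrier, had 16.63 and 9.42 FPKM in MST1-deficient libraries and 13.25 and 11.27 FPKM in wild-type libraries (log2 fold change 0.12), and Car2, a carbonic anhydrase, had 22.76 and 9.15 FPKM in MST1-deficient libraries and 9.96 and 39.5 FPKM in wild-type libraries. No unannotated transcript of the alpha globin genes or of Alas2 was listed, so these defining red cell genes gave no value.

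**Figure D4:**
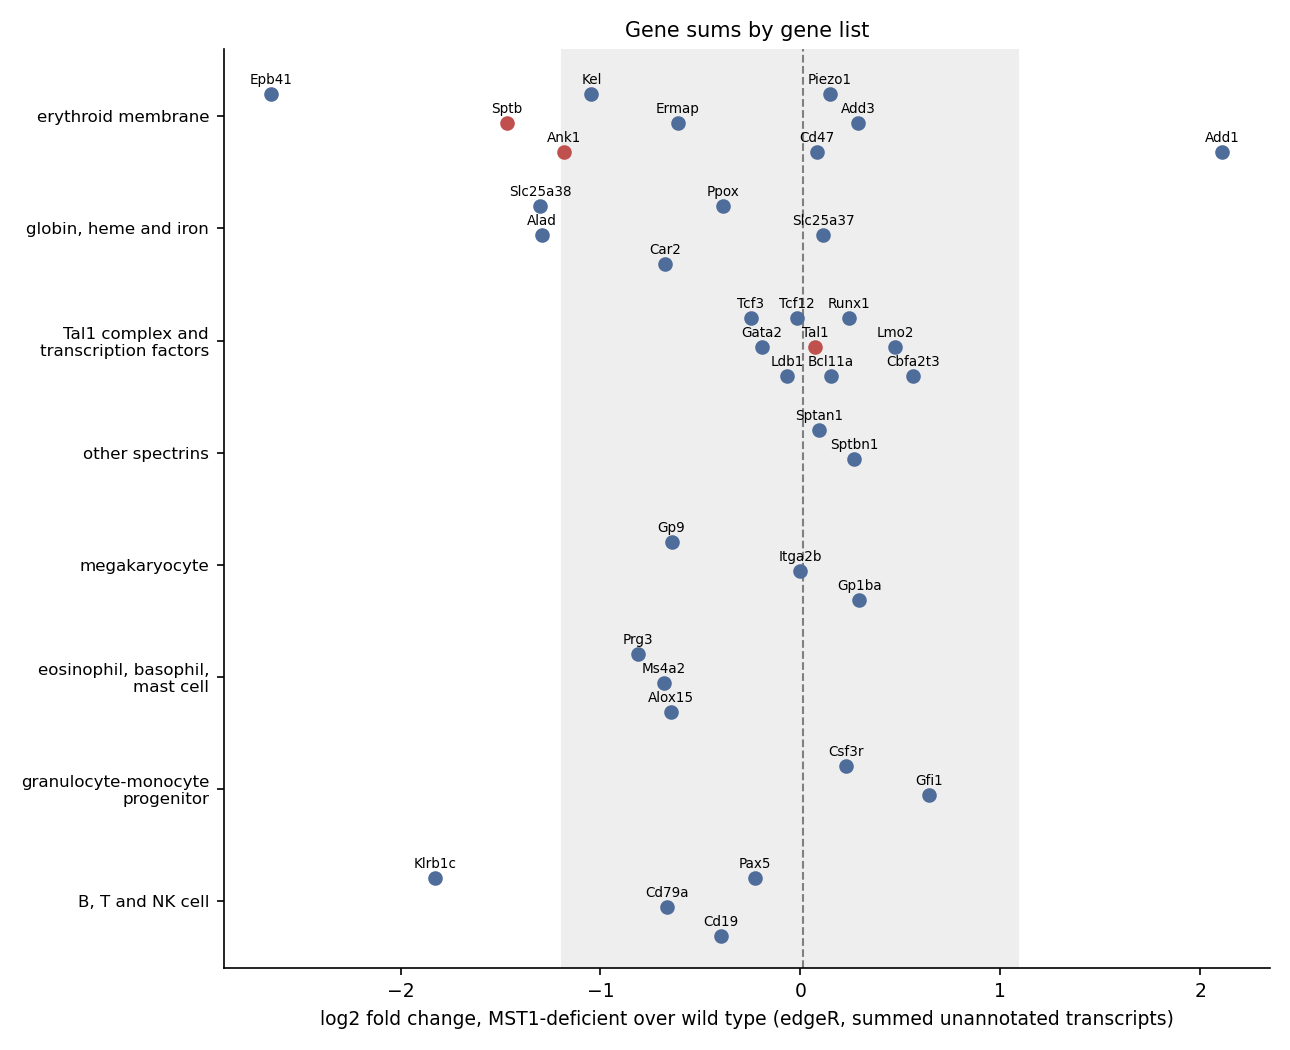
Log2 fold change, MST1-deficient over wild type (edgeR), of the summed unannotated transcripts of each tested gene in 8 gene lists, with Sptb, Ank1 and Tal1 in red and other genes in blue, and vertical offsets within a list for legibility only. The dashed line is the median of the 3221 tested genes (0.012) and the grey band runs from their 5th to their 95th percentile (-1.19 to 1.09), with Sptb left of the band and Tal1 near the line.

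MST1-deficient replicate 2 was the lowest library for 7 of the 9 tested membrane genes and for all 5 tested globin, heme and iron genes, against 40% of all tested genes. It was also the lowest for all 3 tested megakaryocyte markers, both tested spectrins of other tissues and 5 of the 9 Tal1 complex genes. Of the remaining lists it was the lowest for 1 of 3 eosinophil, basophil and mast cell markers, 0 of 2 granulocyte-monocyte progenitor markers and 1 of 4 B, T and NK cell markers. The summed FPKM of the membrane list was 112.84 and 89.5 in MST1-deficient libraries and 116.56 and 126.79 in wild-type libraries, and that of the globin, heme and iron list 70.05 and 37.54 in MST1-deficient libraries and 71.82 and 106.92 in wild-type libraries. Single genes carried much of these sums. Cd47 gave 57.78 and 53.76 FPKM of the membrane sum in MST1-deficient libraries and 55.52 and 54.47 FPKM in wild-type libraries. Car2 gave 39.5 FPKM of the heme list's sum in wild-type replicate 2, against 9.96 FPKM in wild-type replicate 1. The cause of the low values in MST1-deficient replicate 2 was not tested. In bulk RNA, a change in the mix of cells and a change in RNA per cell cannot be told apart. Only unannotated transcripts were measured, so the levels of whole genes are not known here.

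Markers of other cells in the marrow also varied. The megakaryocyte markers, 4 listed of 10, summed to 46.59 and 35.32 FPKM in MST1-deficient libraries and 38.18 and 46.45 FPKM in wild-type libraries, with a median log2 fold change of -0.0022 over 3 tested genes, and -0.23 to 0.26 with 1 library left out. The eosinophil, basophil and mast cell markers, 4 listed of 10, summed to 49.02 and 63.56 FPKM in MST1-deficient libraries and 77.45 and 111.73 FPKM in wild-type libraries, and in all 3 tested genes the MST1-deficient libraries were the lower ones, without overlap, against 18.8% of all tested genes. The B, T and NK cell markers, 5 listed of 10, summed to 13.27 and 8.42 FPKM in MST1-deficient libraries and 33.79 and 2.50 FPKM in wild-type libraries. The granulocyte-monocyte progenitor markers, 3 listed of 15, summed to 78.18 and 98.23 FPKM in MST1-deficient libraries and 84.97 and 60.11 FPKM in wild-type libraries. No unannotated transcript of Mpo, Elane, Prtn3 or Cd34 was listed, so the labelled cell type could not be checked on those markers, and the listed ones were Csf3r, Gfi1 and Kit. The part of other cell types in the values of Sptb and Ank1 was not tested.

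The genes whose pattern over the 4 libraries was nearest to each member were found by the root mean square difference of log2(FPKM + 0.5), each gene centred on its mean. For Sptb these were Ypel4 (0.122), Sdr39u1 (0.125) and Klrc3 (0.129). Klrc3, an NK cell receptor gene with close relatives beside it that may share reads, had 19.12 and 9.53 FPKM in MST1-deficient libraries and 33.71 and 40.33 FPKM in wild-type libraries. For Ank1 they were Arl14ep (0.161), Polr3e (0.198) and Whamm (0.199), and Ank1 stood at 0.327 from Sptb. For Tal1 they were Kif20b (0.0206), Cnot1 (0.0215) and Zgpat (0.0234). In MST1-deficient replicate 2, Ypel4 had 0.2 FPKM and Whamm 0.34 FPKM, below the 0.5 added before the log. The nearness of Ypel4 and Whamm therefore depends in part on that added value. Of the tested genes, 696 lay within 0.2 of Tal1, 8 within 0.2 of Sptb and 3 within 0.2 of Ank1, so the pattern of Tal1 was a common one.

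**Figure D5:**
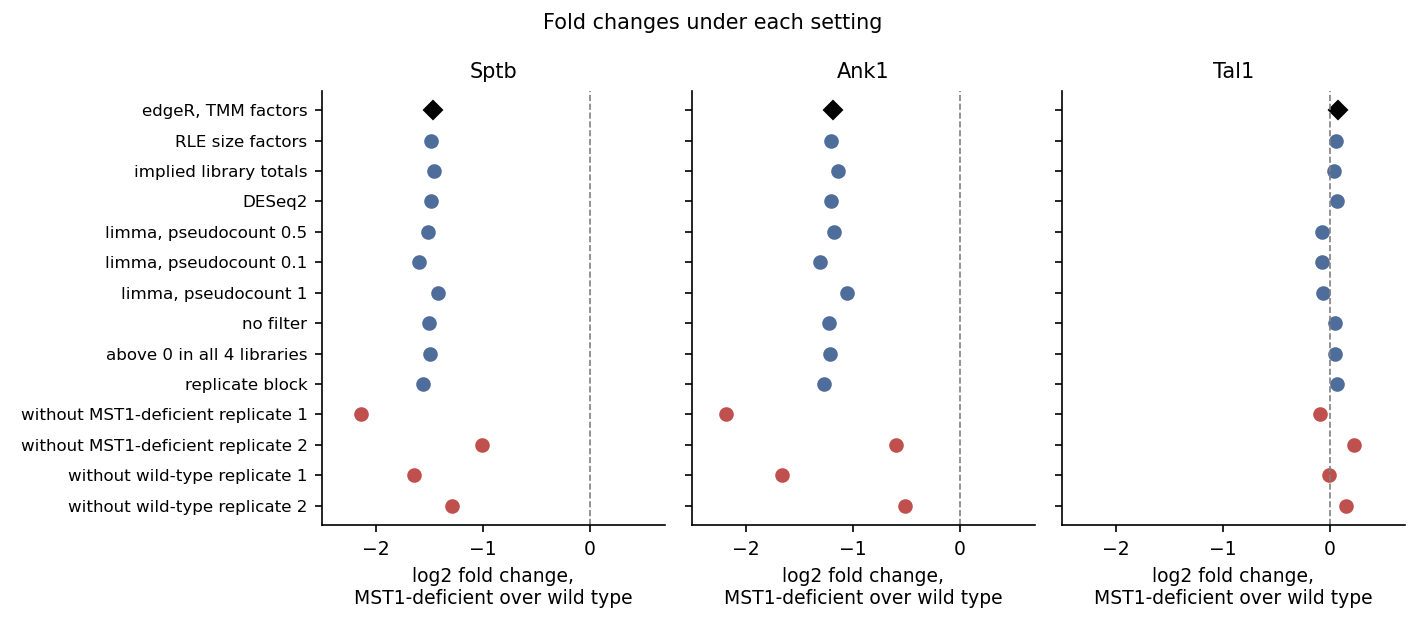
Log2 fold change, MST1-deficient over wild type, of the summed unannotated transcripts of Sptb, Ank1 and Tal1 under each setting, with a black diamond for edgeR with TMM factors, blue points for other settings on all 4 libraries and red points for 1 library left out. Sptb stays between -2.14 and -1.01 and Ank1 between -2.19 and -0.51, while Tal1 lies on both sides of 0.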

How the data were processed

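Poly(A) RNA was captured on oligo-dT beads, per the labels' protocols. The authors deposited estimated counts (expected counts) and FPKM per transcript, per the file headers, on mm10, per the submitters' processing notes. No source used here names the assembler, the estimator or the strand setting. A transcript missing from a library's list was set to 0. Gene numbers were matched to RefSeq (GRCm38.p6, 5051 of 5059 matched).

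Rounded counts were tested with edgeR 4.0.16 (quasi-likelihood, TMM factors, 2-sided, R 4.3.3) per transcript and per gene sum, for features with FPKM of at least 1 in at least 2 libraries, with Benjamini-Hochberg adjustment. SE is the unshrunken log2 coefficient over the root of F. Balance was tested with limma 3.58.1 diffSplice, which treats transcripts as independent. Alternatives included DESeq2 1.42.0, limma on log2(FPKM + 0.5), other filters, blocking on the replicate number, and leaving out single libraries. The main edgeR tests and diffSplice were checked on simulated data. DESeq2 and limma on FPKM were not.

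The members and lists were chosen with earlier results of these data known. Named genes were the members, list genes past the threshold, up to 6 of the most abundant genes of the membrane and Tal1 complex lists, and the 3 nearest patterns per member. Epb41, Add1, Slc25a38 and Ppox, beyond this rule, and Kel, which also falls under it, were picked after their values were seen. The remaining tested globin, heme and iron genes and the tested spectrins of other tissues were named to complete their lists. A few genes of the membrane list are not reported here, and its counts, sums and median leave them out, a choice not based on their values.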

Additional observations from a re-analysis of the deposited data

How the results depend on the processing

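Neither Sptb nor Ank1 passed the threshold or changed direction in any of the 13 alternatives, and the log2 fold change with all 4 libraries ran from -1.60 to -1.42 for Sptb and from -1.31 to -1.05 for Ank1. With 1 library left out it ran from -2.14 to -1.01 for Sptb, from -2.19 to -0.51 for Ank1 and from -0.096 to 0.22 for Tal1. Tal1 changed sign, without passing, with limma at pseudocounts of 0.5 (-0.069), 0.1 (-0.078) and 1 (-0.061), and without MST1-deficient replicate 1 (-0.096) or wild-type replicate 1 (-0.0092). Add3 changed sign with limma (-0.034, -0.044 and -0.024 at pseudocounts of 0.5, 0.1 and 1). With 1 library left out, sign changes without a pass were also found for Add3 (-0.91 to 0.93), Cd47 (-0.028 to 0.18), Piezo1 (-0.12 to 0.46), Ermap (-1.81 to 0.032), Ldb1 (-0.15 to 0.017), Tcf12 (-0.34 to 0.25), Sptan1 (-0.043 to 0.22) and Sptbn1 (-0.43 to 0.79). The cause was not tested.

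The number of gene sums that passed was 49 with DESeq2, 5, 9 and 5 with limma at pseudocounts of 0.5, 0.1 and 1, and 1 when restricted to genes above 0 in every library. For transcripts it was 100 with DESeq2, 5, 0 and 6 with limma at pseudocounts of 0.5, 0.1 and 1 (323 at an unadjusted p under 0.05 at 0.1), and 2 under the same restriction. With 1 library left out, edgeR gave 0 passes for both, with 132 to 291 gene sums and 228 to 444 transcripts at an unadjusted p under 0.05. For the balance of transcripts (diffSplice), 17 genes passed, 8 with no filter, 0 under that restriction (58 at an unadjusted p under 0.05), and between 0 and 10 with 1 library left out. Klrc3 passed with DESeq2 (adjusted p = 0.0159).

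No label says that libraries with the same number are paired, and the deviations of same-numbered libraries from their group means correlated at 0.127 over 3221 genes. Blocking on the replicate number gave log2 fold changes of -1.56 for Sptb (adjusted p = 0.755, edgeR), -1.27 for Ank1 (0.844) and 0.066 for Tal1 (0.971). With this replicate block 0 gene sums, 0 transcripts and 0 genes for the balance of transcripts passed, with 207, 185 and 123 at an unadjusted p under 0.05. The low counts of the Tal1 forms, between 37.02 and 122.97 per library, limit the precision of their shares.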
